A study of Homo sapiens with 2 samples.

Results

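The genes described here are the numbered zinc finger (ZNF) genes of human chromosome 19. They were taken from the deposited tables as every row on chromosome 19 whose symbol is ZNF followed by digits and at most 1 letter, which gave 246 of 20263 genes. Genes of the same kind with other symbols (ZFP, ZSCAN, ZIM) and joint transcripts with double names lie outside the rule. RNA came from Cal-27, an established squamous carcinoma cell line of the tongue. One culture was stably transduced with an shRNA against the kinase HIPK2 (the library labelled sh-HIPK2, vector GV-248-HIPK2-sh) and the other with a scrambled control vector (sh-scramble). The labels name no other allele or treatment, and the sources do not say whether each culture was 1 clone or a pool. With 1 library per group, replicate spread is unknown, no p-value appears, and the shRNA, the culture and the library cannot be told apart.

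The libraries held 26450251 counts (sh-HIPK2) and 28064923 counts (sh-scramble). The 8 squamous epithelial markers checked lay at 64.7 to 2554 CPM (counts scaled to library depth) in sh-HIPK2 and at 54.4 to 2766 CPM in sh-scramble. Of the leukocyte, endothelial and fibroblast markers, PTPRC, CD3E, PECAM1 and DCN were listed at 0 in both libraries, while CDH5 had 27.3 CPM in sh-HIPK2 and 55.2 CPM in sh-scramble, and VWF had 1.15 CPM in sh-HIPK2 and 0.911 CPM in sh-scramble. CD68 had 20.6 CPM in sh-HIPK2 and 23.1 CPM in sh-scramble, and the 4 fibroblast markers summed to 18.8 CPM in sh-HIPK2 and 16.4 CPM in sh-scramble. The targeted gene, HIPK2 (ENSG00000064393, chromosome 7, 139561570 to 139777778, GRCh38), had 218 counts in the library labelled sh-HIPK2 and 110 counts in sh-scramble, against the label. In the deposited TPM, which scales for transcript length and depth, it had 0.873 in the library labelled sh-HIPK2 and 1.63 in sh-scramble, in the direction of the label. The implied length of its transcripts was 13817 nt in sh-HIPK2 and 3442 nt in sh-scramble, and the same relation between count, TPM and length bears on the zinc finger genes below.

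Most of these genes encode proteins with a row of C2H2 zinc fingers that reads DNA sequence, and many carry a KRAB domain in front of it. The KRAB domain binds the co-repressor TRIM28 (KAP1), which brings in the histone methyltransferase SETDB1 and HP1 proteins and leaves H3K9 methylation at the bound sites. KRAB zinc finger proteins are best known for silencing transposable elements. They arose by repeated local duplication, so that on chromosome 19 close relatives stand side by side in clusters. Of the 245 members with a coding transcript in GENCODE 29, 210 held a KRAB-like stretch by a profile search and 35 did not. The fingers found by pattern ran up to 36 in a protein (ZNF208), with a median of 13 in members with the KRAB-like stretch and of 9 in those without it.

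The 250 bases upstream of the RefSeq start are shown for 5 members that mark the ends of the results: ZNF562 and ZNF584 with the largest log2 ratios of sh-HIPK2 over sh-scramble, ZNF586 with the smallest, ZNF787 with the highest level and ZNF91 from the longest run of genes without counts. Sequences are from RefSeq (GRCh38.p14), read 5′ to 3′ on the gene's strand, and capitals mark CpG dinucleotides. The windows are chr19:9675101-9675350 (minus strand) for ZNF562, chr19:58408399-58408648 (plus) for ZNF584, chr19:57769426-57769675 (plus) for ZNF586, chr19:56121296-56121545 (minus) for ZNF787 and chr19:23395472-23395721 (minus) for ZNF91.
ZNF562: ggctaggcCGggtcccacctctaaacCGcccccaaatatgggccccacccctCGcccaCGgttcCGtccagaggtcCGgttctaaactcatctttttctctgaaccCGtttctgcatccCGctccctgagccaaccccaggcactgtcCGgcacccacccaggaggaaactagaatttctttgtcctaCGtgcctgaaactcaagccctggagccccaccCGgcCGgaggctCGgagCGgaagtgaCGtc
ZNF584: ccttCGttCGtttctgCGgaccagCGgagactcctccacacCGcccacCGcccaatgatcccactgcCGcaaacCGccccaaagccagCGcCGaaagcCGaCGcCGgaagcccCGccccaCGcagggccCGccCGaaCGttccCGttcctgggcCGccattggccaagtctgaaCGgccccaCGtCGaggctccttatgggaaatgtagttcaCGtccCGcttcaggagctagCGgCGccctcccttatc
ZNF586: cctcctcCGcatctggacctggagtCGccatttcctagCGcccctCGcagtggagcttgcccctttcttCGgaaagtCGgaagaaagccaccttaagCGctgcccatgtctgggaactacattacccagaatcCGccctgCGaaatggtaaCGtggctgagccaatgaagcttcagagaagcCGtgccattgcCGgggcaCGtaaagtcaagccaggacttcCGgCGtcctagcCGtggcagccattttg
ZNF787: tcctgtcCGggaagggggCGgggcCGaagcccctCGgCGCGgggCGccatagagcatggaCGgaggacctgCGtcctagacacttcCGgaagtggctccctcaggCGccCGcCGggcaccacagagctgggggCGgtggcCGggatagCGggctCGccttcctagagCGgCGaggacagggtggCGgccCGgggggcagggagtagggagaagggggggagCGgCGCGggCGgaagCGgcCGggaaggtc
ZNF91: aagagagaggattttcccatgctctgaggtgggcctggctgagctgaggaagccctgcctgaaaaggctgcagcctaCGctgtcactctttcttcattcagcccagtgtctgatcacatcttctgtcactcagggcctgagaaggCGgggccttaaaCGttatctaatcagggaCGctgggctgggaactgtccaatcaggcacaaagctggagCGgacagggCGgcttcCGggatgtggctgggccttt
ZNF584 and ZNF787 had 27 CpG each in this window, ZNF586 had 16, ZNF562 had 15 and ZNF91 had 7.

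The table of RefSeq promoters held 211 of the 246 members. Their median was 16 CpG per 250 bases, against 11 over 34941 RefSeq promoters. It was 17 for the 86 matched members at 1 CPM or more in a library, 13.5 for the 32 with fewer counts and 15 for the 93 listed at 0 in both libraries, and each of these medians was above that of all RefSeq promoters. Motifs were searched on both strands, each on its own, so that matches to different motifs may overlap. CCGGAAG, the core bound by ETS factors such as GABPA, was present in 30.8% of the members' windows and in 8.48% of all windows. Its share was 30.2% in members at 1 CPM or more, 37.5% in those with fewer counts and 29.03% in members at 0 in both libraries. GGGCGG, the GC box of SP1-type factors, was in 64.9% of the members' windows and 42.5% of all, and CCAAT in 51.7% and 32.0%. TATAAA was in 2.37% of the members' windows and in 10.8% of all. A match is a description of the sequence and not a bound site. For each member the window nearest to the gene start given with the counts was taken, and it lay 70365 bases away for ZNF420. The comparison is with all RefSeq windows, without such a choice.

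Nearly as many members were without counts in these cells as had them. Of the 246 members, 114 (46.3%) were listed at 0 in both libraries, 38 (15.4%) had counts but less than 1 CPM in each, and 94 (38.2%) reached 1 CPM in at least 1 library and are called expressed below. ZNF genes on other chromosomes were listed at 0 in both libraries in 41 of 264 cases (15.5%) and were expressed in 179 (67.8%). Among the 1223 other genes on chromosome 19, 345 (28.2%) were at 0 in both libraries and 696 (56.9%) were expressed. Over all genes 28.1% were at 0 in both libraries and 58.3% were expressed. Over all genes, counts of 1 to 3 were found in 544 genes in sh-HIPK2 and 559 in sh-scramble. Counts of 4 to 30 were found in 2101 in sh-HIPK2 and 2010 in sh-scramble, and 6211 genes in sh-HIPK2 and 6443 in sh-scramble were at 0. Of the members, 0 in sh-HIPK2 and 4 in sh-scramble had 1 to 3 counts, and 41 in sh-HIPK2 and 37 in sh-scramble had 4 to 30. Whether the counting tool applied a minimum is not known, so a 0 may lie under one and gives no floor for a fold.

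**Figure D1:**
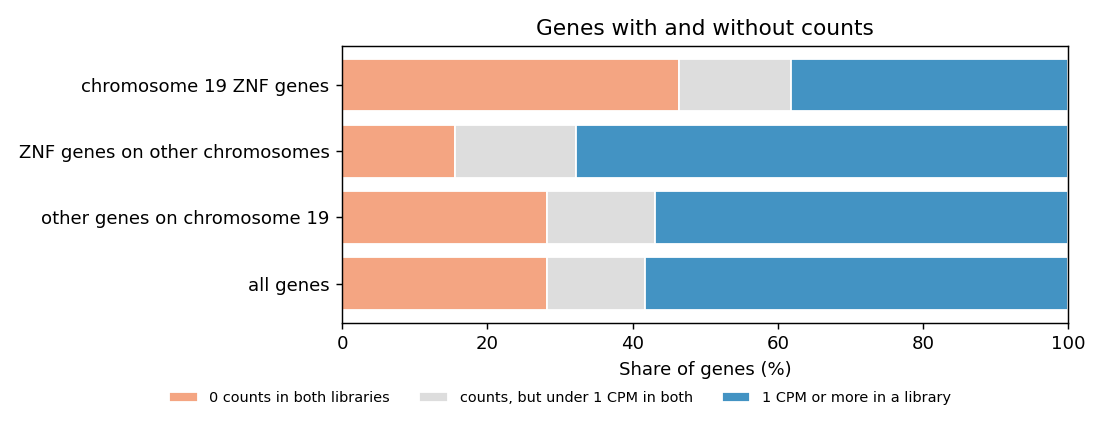
Horizontal bars give the share of genes (in percent) listed at 0 counts in both libraries, with counts but under 1 CPM in both, and at 1 CPM or more in a library. The chromosome 19 ZNF genes, in the top bar, had 46.3% at 0 in both libraries and 38.2% expressed, where ZNF genes on other chromosomes had 15.5% at 0 and 67.8% expressed.

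Most members at 0 in both libraries stood beside others at 0. A new cluster was begun wherever neighbouring members' starts lay more than 1 Mb apart, which gave 16 clusters, 6 of which hold 210 members. In the pericentromeric cluster ZNF101 to ZNF254 (19.7 to 24.1 Mb), 29 of 36 members were at 0 in both libraries. In ZNF565 to ZNF573 (36.2 to 37.8 Mb) these were 21 of 26, in ZNF175 to ZNF331 (51.6 to 53.6 Mb) 28 of 39, and in ZNF653 to ZNF791 (11.5 to 12.6 Mb) 14 of 26. The remaining larger clusters differed: ZNF575 to ZNF296 (43.5 to 45.1 Mb) had 4 of 24 members at 0, and the telomeric cluster ZNF628 to ZNF446 (55.5 to 58.5 Mb) had 13 of 59.

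Within clusters the members at 0 in both libraries formed 26 uninterrupted runs, and 9 runs of at least 5 held 84 of the 114. The longest took 20 neighbours from ZNF738 to ZNF254 (21.36 to 24.13 Mb). It includes ZNF43, ZNF208 and ZNF91, the last of which is known as a repressor of SVA retrotransposons. A run of 13 went from ZNF566 to ZNF585A (36.45 to 37.17 Mb) and holds ZNF568, whose mouse counterpart represses a placental transcript of Igf2. A run of 12 went from ZNF610 to ZNF468 (52.34 to 52.86 Mb), and a run of 6 from ZNF577 to ZNF614 holds ZNF350 (ZBRK1), a DNA-binding partner of BRCA1. ZNF93, a repressor of L1 elements, stood in a shorter run in the pericentromeric cluster. The files list 12 other genes inside the runs of at least 5, among them the zinc finger genes ZFP30 and ZFP28 and the endogenous retroviral envelope genes ERVV-1 and ERVV-2, and all 12 were at 0 in both libraries as well. Several of the 12 share exons on the same strand with members of the runs, so their zeros are not separate from those of the members. Examples are ZFP30 with ZNF781, AC092329.3 with ZNF724 and ZNF816-ZNF321P with ZNF816.

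Reads that match several annotated genes equally bear on such zeros, and the sources do not say how they were counted. Of all members, 22 shared over 20% of their 75-base words with transcripts of other genes. At 0 in both libraries were 11 of those 22, beside 46.3% of all members. For many of them the other gene is an overlapping annotation at the same place, such as ZNF559-ZNF177 for ZNF177 and ZNF625-ZNF20 for ZNF625. For others it is a separate relative, such as ZNF799 for ZNF443 and ZNF492 for ZNF98. The median share was 0.418% in members at 0 in both libraries and 0.0352% in expressed members.

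**Figure D2:**
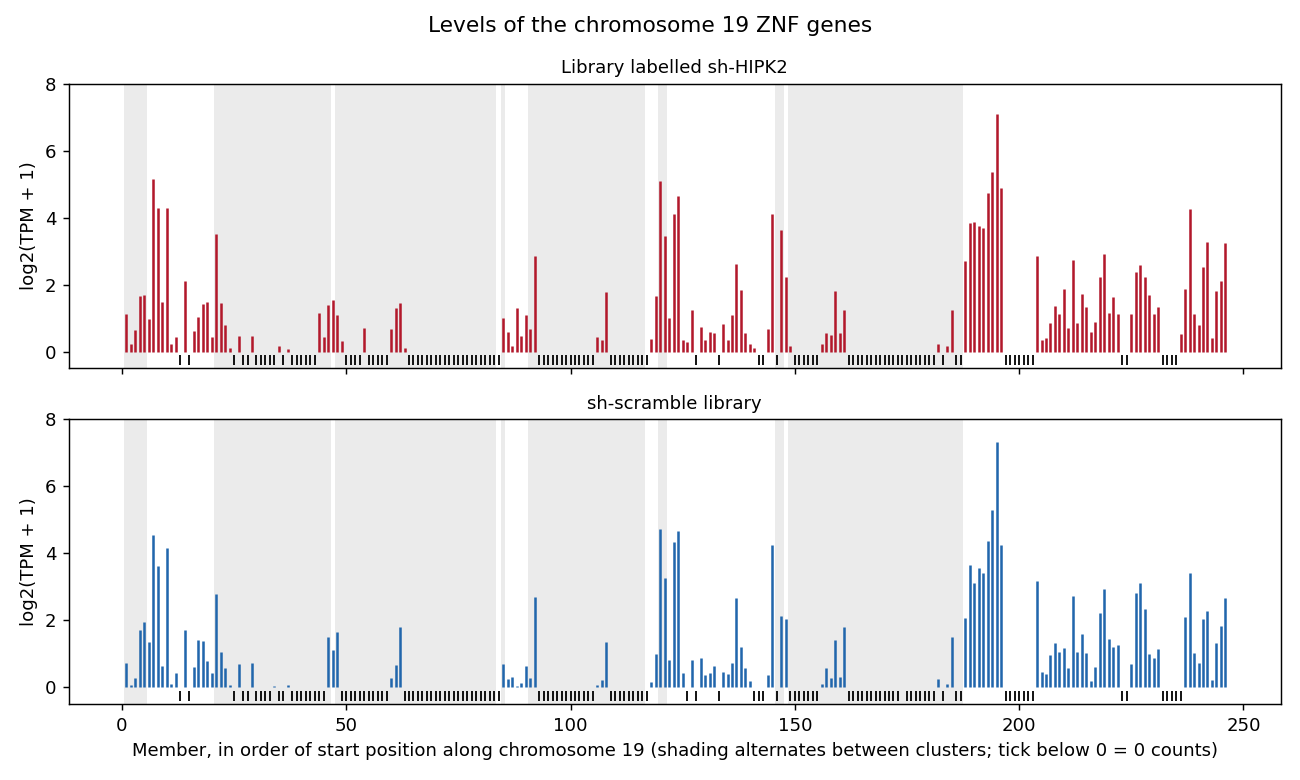
Bars give log2(TPM + 1) of each of the 246 members in order of start position along chromosome 19, in the library labelled sh-HIPK2 (upper panel) and in sh-scramble (lower panel), with shading that alternates between clusters and ticks below 0 for members with 0 counts. Long rows of ticks stand in both libraries at the same places, such as the 20 neighbours from ZNF738 to ZNF254, and ZNF787 is the tallest bar in both.

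Expressed members were mostly transcribed at a low level. Their median was 2.01 TPM in sh-HIPK2 and 1.66 TPM in sh-scramble, where all expressed genes had 8.64 TPM (sh-HIPK2) and 8.49 TPM (sh-scramble) and the other expressed genes of chromosome 19 had 37.4 TPM (sh-HIPK2) and 32.4 TPM (sh-scramble). All members together summed to 666 TPM (sh-HIPK2) and 586 TPM (sh-scramble). The telomeric cluster alone gave 397 TPM in sh-HIPK2 (59.5% of the sum) and 370 TPM in sh-scramble (63.1%), with 42 of its 59 members expressed.

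The highest levels belonged to members without a KRAB-like stretch. ZNF787 (19, 56087366 to 56121280, minus strand) had 135 TPM in sh-HIPK2 and 159 TPM in sh-scramble, several times the next member. ZNF581 followed with 39.97 TPM in sh-HIPK2 and 38.0 TPM in sh-scramble, and ZNF358 with 34.8 TPM in sh-HIPK2 and 22.2 TPM in sh-scramble. The 8 highest by mean TPM were completed by ZNF574, ZNF444, ZNF580, ZNF428 and ZNF576. These 5 had 32.8, 28.8, 25.7, 24.0 and 16.3 TPM in sh-HIPK2, and in the same gene order 25.4, 18.1, 19.9, 24.6 and 19.3 TPM in sh-scramble. None of the 8 carried the KRAB-like stretch. The highest KRAB-like member, ZNF317, had 18.4 TPM in sh-HIPK2 and 16.8 TPM in sh-scramble.

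By class, 69 of 210 members with the KRAB-like stretch were expressed (32.9%) and 105 were at 0 in both libraries (50%). Of the 35 without it, 25 were expressed (71.4%) and 9 were at 0 in both (25.7%). The median level of the expressed ones was 1.60 TPM in sh-HIPK2 and 1.27 TPM in sh-scramble with the stretch, and 12.4 TPM in sh-HIPK2 and 9.74 TPM in sh-scramble without it. The share at 0 also differed with the number of fingers: it was 27.3% of the 22 members with up to 6 fingers, 44.4% of the 63 with 7 to 10, 47.6% of the 103 with 11 to 15 and 54.4% of the 57 with 16 or more. The number of fingers and the class are not separate traits, since many members with up to 6 fingers lacked the KRAB-like stretch. These counts cover silent and expressed members alike and involve no filter, except the medians, which are over expressed members.

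Between the libraries most expressed members differed by less than 1.5-fold. The log2 ratio used here is log2 of (CPM + 1) in sh-HIPK2 over (CPM + 1) in sh-scramble, and past 2-fold means at least 1 or at most -1, chosen for size alone, without any test. Of the 94 expressed members, 7 were past 2-fold higher in sh-HIPK2 (7.45%) and 0 were past 2-fold lower, beside 3.26% higher and 2.87% lower among all 11813 expressed genes. In TPM, 3 members were past 2-fold higher (background 2.69%) and 0 lower (background 2.21%). Within 1.5-fold lay 77 members (81.9%), against 79.4% of all expressed genes. The ratio lay above 0 in 60 members (63.8%), against 50% of all expressed genes, 60.9% of ZNF genes on other chromosomes and 61.8% of the other genes on chromosome 19. In TPM it lay above 0 in 64 members, against 57.8% of all expressed genes.

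The members' median log2 ratio was 0.13, with quartiles at -0.13 and 0.44, beside 0.097 for expressed ZNF genes on other chromosomes, 0.097 for the other genes of chromosome 19 and 0.00 for all expressed genes. The median was thus close to that of other chromosome 19 genes, and nothing particular to the zinc finger genes is read from it. The ratio varied with level. Among members under 1 TPM by the mean of both libraries, 20 of 26 (76.9%) had a ratio above 0 with a median of 0.28. Of all expressed genes of that level 65.8% lay above 0, with a median of 0.22. Of the 16 members at 10 TPM or more, 11 (68.75%) had a ratio above 0 with a median of 0.10. Of all expressed genes of that level 41.7% lay above 0, with a median of -0.077.

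The ratio followed no single course along the chromosome. The 5 clusters with at least 5 expressed members had positive medians: 0.13 in ZNF557 to ZNF846 (7.1 to 9.8 Mb, 10 expressed), 0.35 in ZNF653 to ZNF791 (6 expressed), 0.077 in ZNF575 to ZNF296 (12 expressed), 0.023 in ZNF175 to ZNF331 (6 expressed) and 0.086 in ZNF628 to ZNF446 (42 expressed). Each of them held members on both sides of 0. In the telomeric cluster 24 members lay above 0 and 18 below. The median of ZNF653 to ZNF791 fell to 0.038 without the members listed at 0 in a library, and that of ZNF575 to ZNF296 was -0.045 in TPM.

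**Figure D3:**
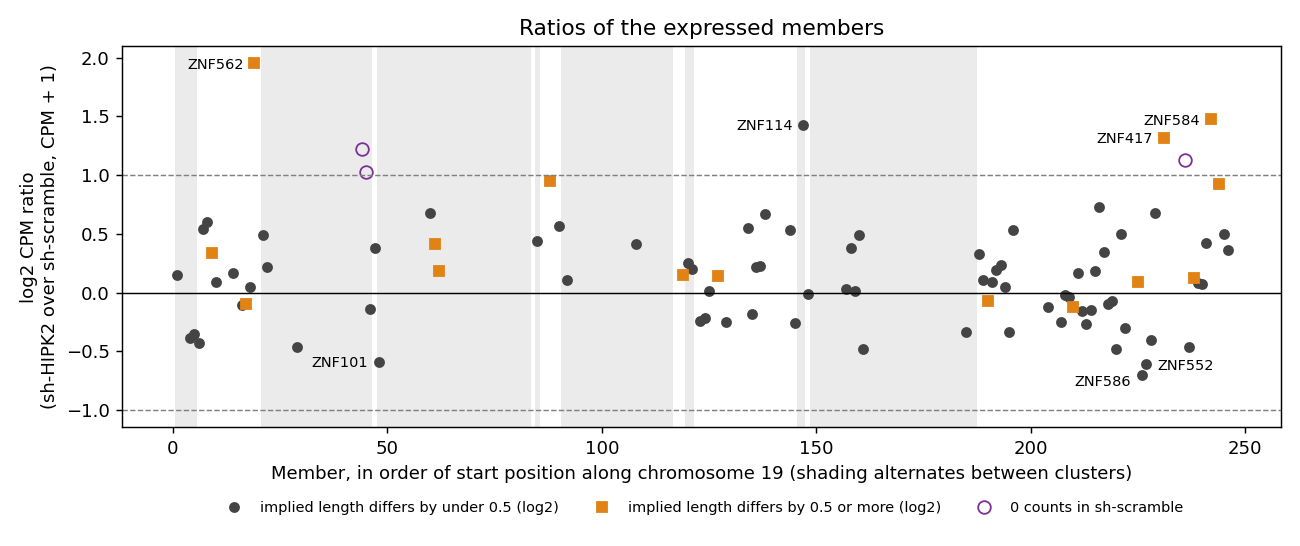
Points give the log2 ratio of CPM + 1 (sh-HIPK2 over sh-scramble) of the 94 expressed members in order of start position along chromosome 19. Dashed lines mark 2-fold, squares mark those whose implied transcript length differed by 0.5 or more (log2), and open circles mark members at 0 counts in sh-scramble. The 7 points above the upper line lie in 4 clusters and no point lies below the lower line.

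Of the 7 members past 2-fold, ZNF562, a KRAB-like gene with 6 fingers at 9.64 to 9.68 Mb, had the largest log2 ratio. It had 196 counts (7.24 CPM) in sh-HIPK2 and 31 counts (1.13 CPM) in sh-scramble, a CPM ratio of 6.41 with a 95% counting interval of 4.37 to 9.69 and a log2 ratio of 1.95. Its TPM was 1.80 in sh-HIPK2 and 0.727 in sh-scramble, a ratio of 2.47. With 1 TPM added in each library its log2 TPM ratio was 0.70, which is not past 2-fold. Its direct neighbour ZNF561 had 112 counts in sh-HIPK2 and 109 in sh-scramble, a ratio of 1.04 (0.793 to 1.37) whose interval includes 1. The exons of ZNF562 overlap those of ZNF561-AS1 on the opposite strand by 2461 nt. Without stated strand use, reads from that stretch cannot be told apart.

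ZNF584 (19, 58408625 to 58418327, plus strand; KRAB-like, 8 fingers) had 347 counts in sh-HIPK2 and 109 in sh-scramble, a ratio of 3.23 (2.60 to 4.04) and a log2 ratio of 1.47. It had 8.75 TPM in sh-HIPK2 and 3.88 TPM in sh-scramble, a ratio of 2.25. With 1 TPM added in each library its log2 TPM ratio was 0.997, just under the 2-fold line. ZNF114 (19, 48270102 to 48287608, plus strand; KRAB-like, 3 fingers) had 399 counts in sh-HIPK2 and 133 in sh-scramble, a ratio of 3.04 (2.49 to 3.73) and a log2 ratio of 1.43. Its difference was alike in TPM, with 11.4 in sh-HIPK2 and 3.38 in sh-scramble (ratio 3.37), and its implied length was 1939 nt in sh-HIPK2 and 2003 nt in sh-scramble. Only ZNF114 remained past 2-fold among the 38 expressed members whose implied length agreed within 5%.

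The other 4 rest on few counts or on shared sequence. ZNF417 had 70 counts in sh-HIPK2 and 12 in sh-scramble, a ratio of 5.91 (3.18 to 11.99), but 1.53 TPM in sh-HIPK2 and 1.23 TPM in sh-scramble, and 31.5% of its 75-base words occur in transcripts of other genes, ZNF587 among them. ZNF564 had 36 counts, ZNF329 had 32 and ZNF490 had 28 in sh-HIPK2, and all 3 were listed at 0 in sh-scramble. Their log2 ratios of 1.22, 1.13 and 1.02 depend on the pseudocount, and no fold is given. ZNF564 and ZNF490 each share exons with the annotated gene AC010422.6 (12525720 to 12580975), which had 0 counts in sh-HIPK2 and 26 in sh-scramble. Of their 75-base words 83.7% (ZNF564) and 70.6% (ZNF490) occur in other genes. With all 26 counts of AC010422.6 added to each gene in turn, the ratio was 1.404 (0.824 to 2.42) for ZNF564 and 1.09 (0.617 to 1.94) for ZNF490. Both intervals include 1. The same 26 counts enter both sums, so the 2 ratios are not separate, and a sum over the whole locus was not made.

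Below the 2-fold line stood ZNF599 (29 counts in sh-HIPK2, 2 in sh-scramble; log2 ratio 0.95, CPM ratio 14.7 with an interval of 3.72 to 127), ZNF324B (97 counts in sh-HIPK2, 39 in sh-scramble; 2.52, 1.72 to 3.76) and ZNF549 (39 counts in sh-HIPK2, 13 in sh-scramble; 3.04, 1.59 to 6.21). Their intervals exclude 1, and the pseudocount held their log2 ratios below 1 at these levels. In the described clusters without a member past 2-fold, the highest were ZNF227 with 134 counts in sh-HIPK2 and 75 in sh-scramble (1.81, 1.36 to 2.44) and ZNF766 with 54 counts in sh-HIPK2 and 31 in sh-scramble (1.77, 1.12 to 2.84). ZNF227 lies among the relatives of ZNF224, a KRAB repressor studied with the tumour suppressor WT1, which had 56 counts in sh-HIPK2 and 30 in sh-scramble.

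Some well transcribed members without a KRAB-like stretch differed less, with narrower intervals. ZNF358 had 1212 counts in sh-HIPK2 and 836 in sh-scramble, a ratio of 1.47 (1.34 to 1.61), and ZNF444 had 926 in sh-HIPK2 and 640 in sh-scramble, also 1.47 (1.33 to 1.63). ZNF787, by contrast, had 4679 counts in sh-HIPK2 and 5983 in sh-scramble, a ratio of 0.793 (0.763 to 0.824). ZNF581 had 923 counts in sh-HIPK2 and 903 in sh-scramble, a ratio of 1.04 (0.944 to 1.14) whose interval includes 1. ZNF576, ZNF428 and ZNF296, all 3 in the cluster ZNF575 to ZNF296, lay below 0 with log2 ratios of -0.24, -0.21 and -0.26. ZNF580 and ZNF574 lay above it with 0.24 and 0.25.

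The lowest ratios were smaller in size than the highest. ZNF586 (19, 57769655 to 57819939, plus strand; KRAB-like, 8 fingers) had 145 counts in sh-HIPK2 and 256 in sh-scramble, a ratio of 0.574 (0.465 to 0.707) and a log2 ratio of -0.70. ZNF552 (19, 57803841 to 57814913, minus strand) had 205 counts in sh-HIPK2 and 332 in sh-scramble, a ratio of 0.626 (0.523 to 0.747). These neighbours overlap on opposite strands, so without stated strand use reads from their shared stretch cannot be told apart. ZNF587B, next to them, had 167 counts in sh-HIPK2 and 233 in sh-scramble (log2 ratio -0.40), and its exons overlap those of ZNF586 on the same strand.

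Beyond this trio the direction turned within a few kilobases. ZNF587, singled out after its values were seen, had 221 counts in sh-HIPK2 and 130 in sh-scramble, a log2 ratio of 0.68. Its exons overlap those of ZNF814 on the opposite strand by 2445 nt, and reads from that stretch cannot be told apart either. Of its 75-base words 15.3% occur in other genes, among them ZNF417, which lies further along. Summed over ZNF586, ZNF587B and AC010522.1, a gene that shares exons with them, the counts were 321 in sh-HIPK2 and 498 in sh-scramble, a ratio of 0.653 (0.566 to 0.753). ZNF587B and ZNF417, with 27.98% and 31.5% of their 75-base words in other genes, stood on opposite sides of 0.

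The other members with the lowest ratios were ZNF101, ZNF480, ZNF134, ZNF274, ZNF700, ZNF557 and ZNF57, with log2 ratios of -0.59, -0.48, -0.48, -0.46, -0.46, -0.43 and -0.38. They had 88, 114, 110, 112, 22, 54 and 58 counts in sh-HIPK2, and in the same gene order 148, 172, 166, 167, 41, 83 and 85 counts in sh-scramble. ZNF274 is known for binding the 3′ ends of zinc finger genes and recruiting SETDB1 there. Its ratio was 0.680 (0.530 to 0.869) in CPM, with 2.65 TPM in sh-HIPK2 and 3.31 TPM in sh-scramble.

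More of the members with low counts had the higher count in the library labelled sh-HIPK2 than in sh-scramble. Of the 38 members with counts but less than 1 CPM, 26 had more counts in sh-HIPK2 (68.4%), 9 had more in sh-scramble (23.7%) and 3 had the same number. Over all 2747 genes of that level, 52.8% had more counts in sh-HIPK2 and 41.3% had more in sh-scramble. The 38 members had a median of 14.5 counts in sh-HIPK2 and 9 in sh-scramble. Among the members with counts in a library, 10 were listed at 0 in sh-scramble only, and 2 in sh-HIPK2 only. Of all genes with counts in a library, 5.08% were at 0 in sh-scramble only and 3.49% in sh-HIPK2 only. The 10 were ZNF564, ZNF329, ZNF490, ZNF90, ZNF14, ZNF175, ZNF20, ZNF404, ZNF112 and ZNF708, with 6 to 36 counts in sh-HIPK2. The 2 were ZNF788 and ZNF320, each with 2 counts in sh-scramble. In bulk RNA fewer cells that transcribe a gene and less RNA per cell cannot be told apart.

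Transcript length entered these ratios in a way that differed between scales. Count and TPM of a gene are tied by a transcript length implied in the files, so a CPM ratio equals the TPM ratio multiplied by the ratio of implied lengths, up to a constant of the libraries. The implied length was count over FPKM, scaled on 528 genes with a single annotated transcript, of which 98.7% (sh-HIPK2) and 98.9% (sh-scramble) came within 2% of the annotated length. It differed between the libraries by at least 0.5 on the log2 scale in 15 of the 91 expressed members with counts in both (16.5%), of which 6 were longer and 9 shorter in sh-HIPK2. Among expressed genes with counts in both, the share was 12.3% for ZNF genes on other chromosomes, 3.17% for other genes of chromosome 19 and 6.47% overall. Implied lengths within 5% of each other were found in 41.8% of the 91 members and 61.6% of all such genes. Members under 1 CPM in both libraries are not included. The implied length of an expressed member can still rest on few counts in 1 library, as for ZNF417 and ZNF599 in sh-scramble. These shares are not matched for level. In sh-scramble the median was 1.66 TPM over expressed members and 8.49 TPM over all expressed genes.

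**Figure D4:**
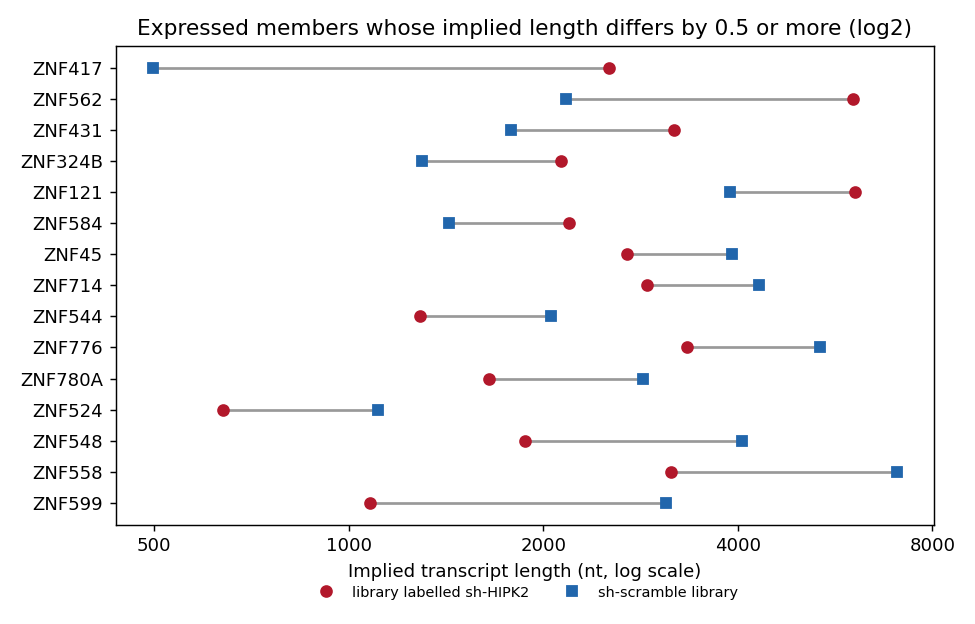
Circles (library labelled sh-HIPK2) and squares (sh-scramble) give the implied transcript length in nt on a log axis for the 15 expressed members in which it differed by 0.5 or more (log2). It was longer in sh-HIPK2 in the upper 6, such as ZNF417 (2526 nt in sh-HIPK2, 497 nt in sh-scramble), and shorter in the lower 9, such as ZNF558 (3156 nt in sh-HIPK2, 7051 nt in sh-scramble).

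ZNF417 had an implied length of 2526 nt in sh-HIPK2 and 497 nt in sh-scramble, ZNF562 of 6036 nt in sh-HIPK2 and 2170 nt in sh-scramble, and ZNF584 of 2194 nt in sh-HIPK2 and 1428 nt in sh-scramble. For these 3 the CPM ratio exceeded the TPM ratio. The opposite held for ZNF599 (1080 nt in sh-HIPK2, 3100 nt in sh-scramble), where sh-scramble rests on 2 counts, and for the KRAB gene ZNF558 (3156 nt in sh-HIPK2, 7051 nt in sh-scramble). ZNF558 had 104 counts in sh-HIPK2 and 78 in sh-scramble, but 1.82 TPM in sh-HIPK2 and 0.563 TPM in sh-scramble. ZNF548 (1875 nt in sh-HIPK2, 4056 nt in sh-scramble) had 89 counts in sh-HIPK2 and 101 in sh-scramble, with a log2 ratio of -0.13 in CPM and of 0.68 in TPM. The sign differed between CPM and TPM in 12 of the 91 members.

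Length itself separated the members little. Over all expressed genes the log2 CPM ratio moved with implied length (Spearman rho 0.27 over 11760 genes), with medians of -0.15, -0.059, 0.033 and 0.18 in the quartiles from short to long. Among the 91 members rho was 0.0093, and the medians in the same quartiles (bounds 1717, 2686 and 4178 nt) were 0.031, 0.19, 0.11 and 0.047, over 18, 25, 30 and 18 members. The change of implied length had a rho of -0.43 with the log2 TPM ratio and of -0.023 with the log2 CPM ratio over the members. These genes share the same pair of libraries and, in TPM, the length itself, so the values are descriptions. CPM and TPM ratios of the members had a rho of 0.81.

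**Figure D5:**
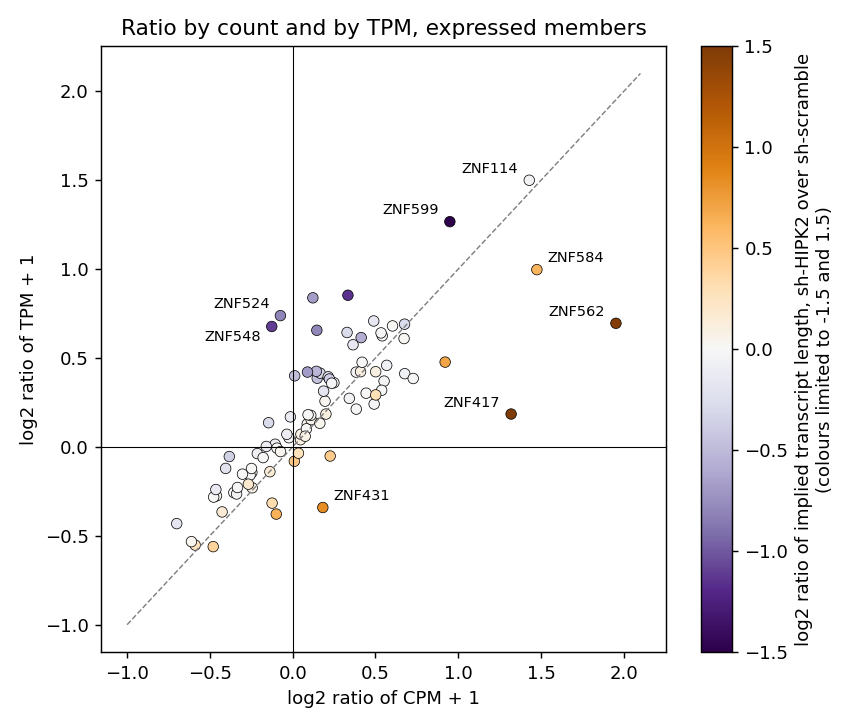
Each point is 1 of the 91 expressed members with counts in both libraries, with its log2 ratio of CPM + 1 on the x axis and of TPM + 1 on the y axis, sh-HIPK2 over sh-scramble, coloured by the log2 ratio of implied length. ZNF562 and ZNF417, implied longer in sh-HIPK2, lie right of the dashed line of equality, ZNF548 and ZNF599, implied shorter, lie left of it, and ZNF114 lies near it.

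Exons shared with other annotated genes touched a part of the list. Of the 94 expressed members, 26 share exons on the same strand with another gene in the files, 30 overlap exons on the opposite strand and 6 share over 20% of their 75-base words with other genes. The widest effect came from AC020915.6, a gene annotated across ZNF544 and ZNF8 (58228914 to 58315183), with 2 counts in sh-HIPK2 and 1579 in sh-scramble. ZNF544 itself had 421 counts in sh-HIPK2 and 390 in sh-scramble, and ZNF8 had 197 in sh-HIPK2 and 187 in sh-scramble. With the genes that share their exons added, the sums for ZNF544 were 423 in sh-HIPK2 and 1969 in sh-scramble, a ratio of 0.218 (0.196 to 0.242), and those for ZNF8 were 227 in sh-HIPK2 and 1783 in sh-scramble, a ratio of 0.129 (0.112 to 0.148). The same 1579 counts of AC020915.6 in sh-scramble enter both sums. These 2 members passed 2-fold lower only in those sums.

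The co-repressor side of the pathway was measured beside the members. Of 36 genes listed for TRIM28, its partners and the writers and readers of H3K9 methylation, 35 were expressed. In these, 2 were past 2-fold higher and 0 lower, beside the 3.26% higher and 2.87% lower of all expressed genes. Above 0 lay 17 and below it 18, beside 50% of all expressed genes above 0, with a median log2 ratio of -0.016. TRIM28, at 58544091 to 58550722 just beyond the telomeric cluster, was at 1209 CPM in sh-HIPK2 and 1006 CPM in sh-scramble, a ratio of 1.20 (1.18 to 1.22). SETDB1, the H3K9 methyltransferase, had 749 counts in sh-HIPK2 and 768 in sh-scramble, a ratio of 0.989 (0.893 to 1.09).

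Of the HP1 genes, CBX3 had 1378 counts in sh-HIPK2 and 1952 in sh-scramble (0.716, 0.667 to 0.767), CBX1 had 1025 in sh-HIPK2 and 1268 in sh-scramble (0.819, 0.754 to 0.891) and CBX5 had 332 in sh-HIPK2 and 354 in sh-scramble (0.951, 0.816 to 1.11). SUMO2, one of the SUMO proteins that modify TRIM28, had 3358 counts in sh-HIPK2 and 5006 in sh-scramble (0.680, 0.651 to 0.711). The 2 genes past 2-fold were TRIM24, a relative of TRIM28, with 161 counts in sh-HIPK2 and 47 in sh-scramble (3.47, 2.495 to 4.91), and FAM208A (TASOR), a subunit of the HUSH silencing complex, with 154 in sh-HIPK2 and 53 in sh-scramble (2.95, 2.14 to 4.10). SMARCAD1, a chromatin remodeller that binds TRIM28, had 88 counts in sh-HIPK2 and 33 in sh-scramble (2.70, 1.79 to 4.17), and ATRX, a remodeller acting with DAXX at silenced repeats, had 87 in sh-HIPK2 and 56 in sh-scramble (1.57, 1.11 to 2.24). In TPM neither TRIM24 nor FAM208A was past 2-fold (log2 ratios 0.50 and 0.71), and HDAC2 was the 1 gene of the list that was.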

How the data were processed

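RNA was sequenced as paired-end reads of 150 bp from 1 library per group, per the labels' protocols, and aligned with TopHat2 2.1.1 on GRCh38, per the submitters' processing notes. The sources used here name no counting tool, annotation or use of strand. The authors deposited a whole-number count, a TPM and an FPKM per gene, per the file headers. FPKM served only for the implied length. Positions are those of the files.

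Counts were scaled to CPM with TMM factors (1.02 for sh-HIPK2, 0.977 for sh-scramble; edgeR 4.0.16, R 4.3.3), and no test was run. The pseudocount was 1 CPM and expressed means at least 1 CPM in a library. Intervals are 95% exact Clopper-Pearson bounds given each gene's summed count (scipy 1.17.1), cover counting error only, and treat reads as independent molecules, which is not known without molecular identifiers. KRAB-like stretches were found with HMMER 3.4 (E below 1e-05) on the longest coding sequence of GENCODE 29, with a profile from 183 members. On counts simulated for this comparison over 20263 genes with counting noise alone, the rule of size called 98% of genes changed 2.5-fold, 98% at 3-fold, 100% at 4-fold, 0% at 1.5-fold and 0 of 11433 unchanged genes. A change of 1.5-fold lies under the limit of the rule. The shares are over 50 changed genes of the whole simulation and do not describe members with few counts. ZNF599, ZNF324B and ZNF549 had CPM ratios above 2.5 and were not called, because the pseudocount lowers log2 ratios at low levels.

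The members and lists were chosen with earlier results of these data known. Named are HIPK2 and, among expressed members, the 10 highest and 10 lowest log2 ratios, the 8 highest levels, the extremes of clusters with at least 5 expressed members, the 5 largest changes of implied length, as well as the co-repressors with the 6 largest ratios besides TRIM28, SETDB1 and the HP1 genes. Other genes are named for a known role, for their place in a run or cluster, or after their values were seen. One of the marker genes checked is not reported here.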

Additional observations from a re-analysis of the deposited data

How the results depend on the processing

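No paired analysis was possible because there was 1 library per group, and no replicate could be left out. Of the members, 7 were past 2-fold higher and 0 lower. The count higher was 11 with a pseudocount of 0.1 CPM, 1 with 5 CPM, 3 with a filter at 5 CPM, 3 in TPM, 1 where implied lengths agreed within 5%, 4 without position overlap and 14 at 1.5-fold (3 lower). With settings chosen after seeing the data it was 4 without genes at 0 in a library, 4 without members over 20% shared 75-base words, and 5 with exon-sharing genes summed (2 lower). In those sums the counts of a shared gene were added in full to each member it overlaps. The members' median of 0.13 was 0 with no filter, which adds the members at 0, and lay between 0.081 and 0.20 otherwise. It was 0.19 with library totals, which moved the median of all genes to 0.061, and 0.12 with DESeq2 1.42.0 size factors.

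The median of ZNF575 to ZNF296 turned to -0.045 in TPM and to -0.24 with the 5 CPM filter, which left 3 members. That of ZNF653 to ZNF791 ran from 0 to 0.42 and was 0.055 with exon-sharing genes summed. Medians with fewer than 3 members are not given. A gap of 0.5 Mb gave 20 clusters and of 2 Mb gave 9. The cause of these shifts was not tested. Depth limits the lower members: 26 of the 94 averaged under 1 TPM and 35 more lay between 1 and 3 TPM.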

Other observations

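Zinc finger genes of chromosome 19 outside the naming rule were read as values only. ZFP14, ZFP82, ZFP30, ZFP28, ZIK1, ZIM2, ZIM3, PEG3, ZSCAN1, ZSCAN4 and ZSCAN18 were listed at 0 in both libraries. PEG3 is an imprinted gene, and ZSCAN4 is known from early embryos. MZF1, a SCAN zinc finger gene at the telomeric end, had 433 counts in sh-HIPK2 and 240 in sh-scramble, a ratio of 1.83 (1.56 to 2.15). HKR1 had 244 counts in sh-HIPK2 and 216 in sh-scramble, ZSCAN22 had 228 in sh-HIPK2 and 177 in sh-scramble, and ZBTB45 had 960 in sh-HIPK2 and 823 in sh-scramble. ZFP36, which binds AU-rich elements of mRNA and has no C2H2 finger, had 495 counts in sh-HIPK2 and 699 in sh-scramble, a ratio of 0.718 (0.639 to 0.807).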
